A study of Solanum lycopersicum with 18 samples.

Results

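The comparison described here is that of *dgt* with wildtype (WT) tomato roots in the differentiation zone. Its members are the libraries whose tissue label is the differentiation zone, 6 of the 18 libraries of the series, 3 from each genotype. All plants were 7-day-old seedlings of *Solanum lycopersicum* cv. Ailsa Craig, grown on sucrose-containing agar at 21 °C in long days, and the mutant carried the single allele dgt1-1. Each replicate pooled on average 50 to 100 root portions of about 1 cm, cut above the first root hair bulge, so a library is an average over all cell types of the mature root and over many seedlings. The other libraries come from the meristem and the elongation zone of the same genotypes, and serve here to show where the differentiation zone stands apart. In such bulk tissue, fewer cells of a type and less RNA per cell cannot be told apart.

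DGT is a cyclophilin, a peptidyl-prolyl isomerase, and its loss makes tomato plants resistant to auxin and leaves their roots without lateral branches. The differentiation zone is where root cells have stopped expanding, where hairs, xylem and barrier layers mature, and where lateral roots are normally founded under the control of auxin. Auxin acts by removing Aux/IAA repressors, which frees auxin response factors (ARFs) to regulate their target genes. Abscisic acid (ABA), ethylene, cytokinin and jasmonate act through separate receptors and cascades, and their synthesis enzymes and targets are read here from transcript levels.

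The 6 libraries were alike in depth, with summed expected counts between 18504654 and 20622998. Expected counts are the numbers of reads that RSEM assigned to a gene, which may be fractions where reads fit several genes. Values per library are given below as normalized counts, which are expected counts divided by the library's effective size (edgeR's TMM scaling) and put on the mean size of the 6 libraries. WT replicate 1 stood apart from the other WT libraries, at a chi-square per degree of freedom of 32.8 and 43.7 against 11.4 between replicates 2 and 3. Among *dgt* libraries it was 9.74 to 16.3. No gene was found under the name DGT, so the genotype labels could not be checked by the mutated gene. A cyclophilin gene listed as CyP, whose identity with DGT was not established, had 29337, 18482 and 17055 normalized counts in WT replicates 1, 2 and 3 and 17762, 15995 and 17455 in *dgt*, so its groups overlapped.

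Expression differed widely between the genotypes in the differentiation zone. Transcripts of water-deficit proteins, of the photosynthetic apparatus and of small heat shock proteins were among those that rose in *dgt*, and transcripts of pathogenesis-related (PR) proteins, a sucrose synthase and an ACC oxidase were among those that fell. A gene was called where edgeR's quasi-likelihood test gave a Benjamini-Hochberg adjusted p under 0.05 and the fold exceeded 2. The value after ± on a log2 fold change is its standard error, derived from the F statistic of that test. On TPM levels it is the SD. Of 20547 tested genes, 1754 were called higher in *dgt* (8.54%) and 919 lower (4.47%). At any fold 6060 genes passed the adjusted p (29.5%), 3312 of them higher and 2748 lower in *dgt*. The normalized counts of 9344 genes (45.5%) did not overlap between the genotypes. Without WT replicate 1 the calls were 1743 higher and 835 lower, of which 1562 and 755 were among those made with it. Among the genes lowered in *dgt*, WT replicate 1 was the highest WT library for 58.1%, against 38.4% of all tested genes. Of 941 tested long non-coding RNAs 15.7% were higher and 4.99% lower, and of 18691 protein-coding genes 7.93% and 4.34%.

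**Figure D1:**
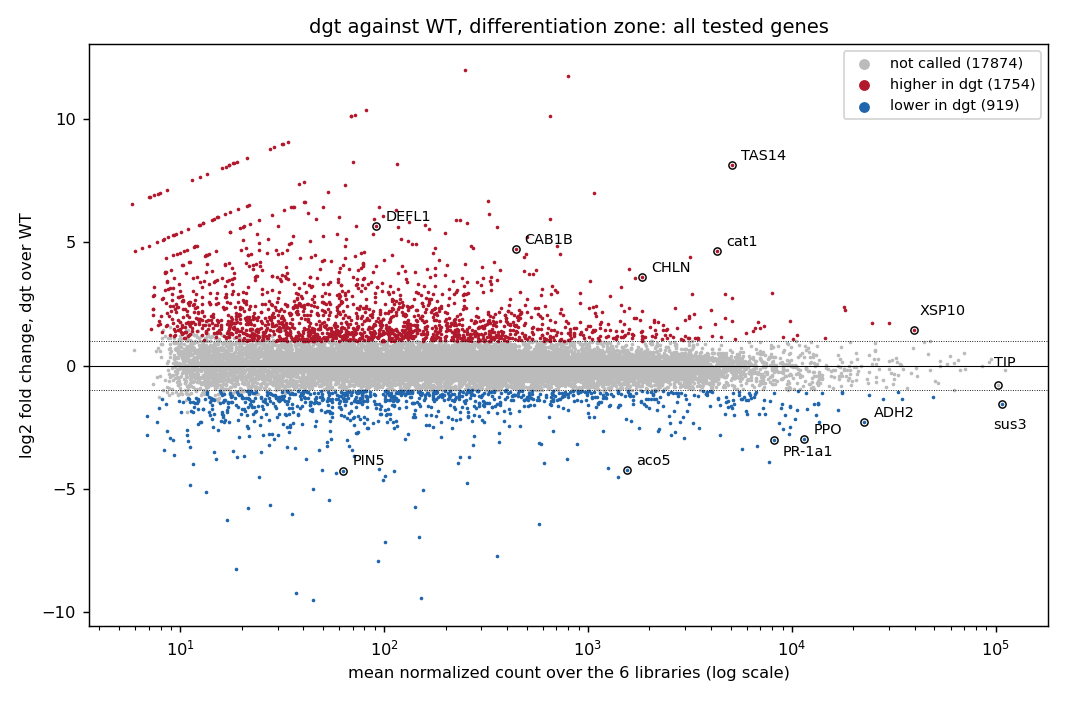
Each point is a tested gene, with its mean normalized count over the 6 libraries on a log axis and its log2 fold change (*dgt* over WT) on the other axis; dotted lines mark a fold of 2. The 1754 genes called higher are red and the 919 called lower are blue, and 13 named genes are ringed, from TAS14 at 8.11 to PIN5 at -4.26.

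The largest rises among named genes were led by a dehydrin. TAS14, a late embryogenesis abundant protein induced by ABA and salt, had 37.0, 38.8 and 34.1 normalized counts in the WT replicates and 10459.8, 12257 and 7735 in the *dgt* replicates. The *dgt* libraries thus lay far above WT and did not overlap it, with a log2 fold change of 8.11 ± 0.24 (edgeR adjusted p = 1.2e-08). DEFL1, a defensin-like gene, had 3.47, 5.25 and 1.84 in WT against 144, 242 and 152 in *dgt* (log2 fold change 5.65 ± 0.38, edgeR adjusted p = 2.7e-06). SlFBA3, a fructose-bisphosphate aldolase gene, had 24.3, 11.5 and 8.29 in WT and 657, 812 and 631 in *dgt* (log2 fold change 5.61 ± 0.27, edgeR adjusted p = 4.1e-07). In WT these transcripts were rare, and in *dgt* all 3 were plainly present in every library.

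PHOT2, a blue-light receptor of the phototropin family, had 1.16, 3.15 and 3.68 normalized counts in WT and 141, 94.1 and 111 in *dgt* (log2 fold change 5.33 ± 0.36, edgeR adjusted p = 2.8e-06). PSK4, which encodes a precursor of the peptide hormone phytosulfokine, had 4.62, 2.10 and 3.68 in WT and 122, 129 and 129 in *dgt* (log2 fold change 5.15 ± 0.29, edgeR adjusted p = 9.6e-07). CER6, an enzyme that lengthens fatty acids for wax, had 9.24, 6.30 and 10.1 in WT and 196, 309.9 and 287 in *dgt* (log2 fold change 4.92 ± 0.28, edgeR adjusted p = 9.6e-07). The *dgt* replicates of PSK4 lay close together, while those of CER6 and PHOT2 spread more widely. LeGLO2 rose by 5.21 ± 0.35 on the log2 scale from 41.6, 16.8 and 22.1 normalized counts in WT to 940.3, 636 and 1358 in *dgt* (edgeR adjusted p = 2.7e-06). The gene cat1 went from 279.5, 362 and 356 in WT to 6757, 12979 and 5025 in *dgt*, with the highest value in replicate 2 (log2 fold change 4.63 ± 0.33, edgeR adjusted p = 4.1e-06). The other genes of the largest rises, er-sHSP and CAB1B, belong to the heat shock and photosynthesis groups described below.

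Among the largest falls were regulators and enzymes of ethylene, auxin and ABA. The gene aco5 encodes an ACC oxidase, the enzyme of the last step of ethylene synthesis, and had 2666, 3078 and 3102 normalized counts in WT against 116, 75.6 and 279.6 in *dgt*. All *dgt* libraries lay far below WT, with replicate 3 the highest of them, and the log2 fold change was -4.24 ± 0.37 (edgeR adjusted p = 1.5e-05), or -4.94 without that replicate. PIN5, a member of the PIN family of auxin carriers, had 93.6, 110.2 and 156 in WT and 0, 5.53 and 13.2 in *dgt* (log2 fold change -4.26 ± 0.52, edgeR adjusted p = 1.4e-04), and -5.34 without *dgt* replicate 3. LOC101249486, listed as the ethylene response factor gene ERF-F8, had 124, 105 and 85.6 in WT and 1.95, 4.61 and 0 in *dgt* (log2 fold change -5.46 ± 0.46, edgeR adjusted p = 1.1e-05), and -6.54 without *dgt* replicate 2. ABI3, a B3-domain transcription factor of ABA responses, had 40.4, 68.2 and 73.7 in WT and 3.91, 2.77 and 12.2 in *dgt* (log2 fold change -3.28 ± 0.45, edgeR adjusted p = 3.2e-04), and -4.15 without *dgt* replicate 3. Each of these falls was present in every *dgt* library, and the size was less certain than the direction because the *dgt* counts of PIN5, ERF-F8 and ABI3 were few.

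The other large falls were in genes of enzymes, transporters and defence. PPO, a polyphenol oxidase, had 29374, 15184 and 16671 normalized counts in WT and 2011, 1803 and 3935 in *dgt* (log2 fold change -2.98 ± 0.34, edgeR adjusted p = 8.2e-05). LOC101259406, listed as the ABC transporter ABCG4, had 658, 449 and 352 in WT and 62.5, 48.9 and 93.2 in *dgt* (log2 fold change -2.83 ± 0.27, edgeR adjusted p = 2.8e-05). WT replicate 1 was the highest library for both, and the log2 fold changes without it were -2.62 and -2.55. Dea1 had 5844, 4703 and 7266 in WT and 872, 644 and 1562 in *dgt* (log2 fold change -2.53 ± 0.29, edgeR adjusted p = 9.4e-05). PT2, a phosphate transporter, had 158, 136 and 126 in WT and 19.5, 15.7 and 38.5 in *dgt* (log2 fold change -2.52 ± 0.29, edgeR adjusted p = 9.3e-05). In *dgt* replicate 3 was the highest library for both Dea1 and PT2, still below every WT library.

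**Figure D2:**
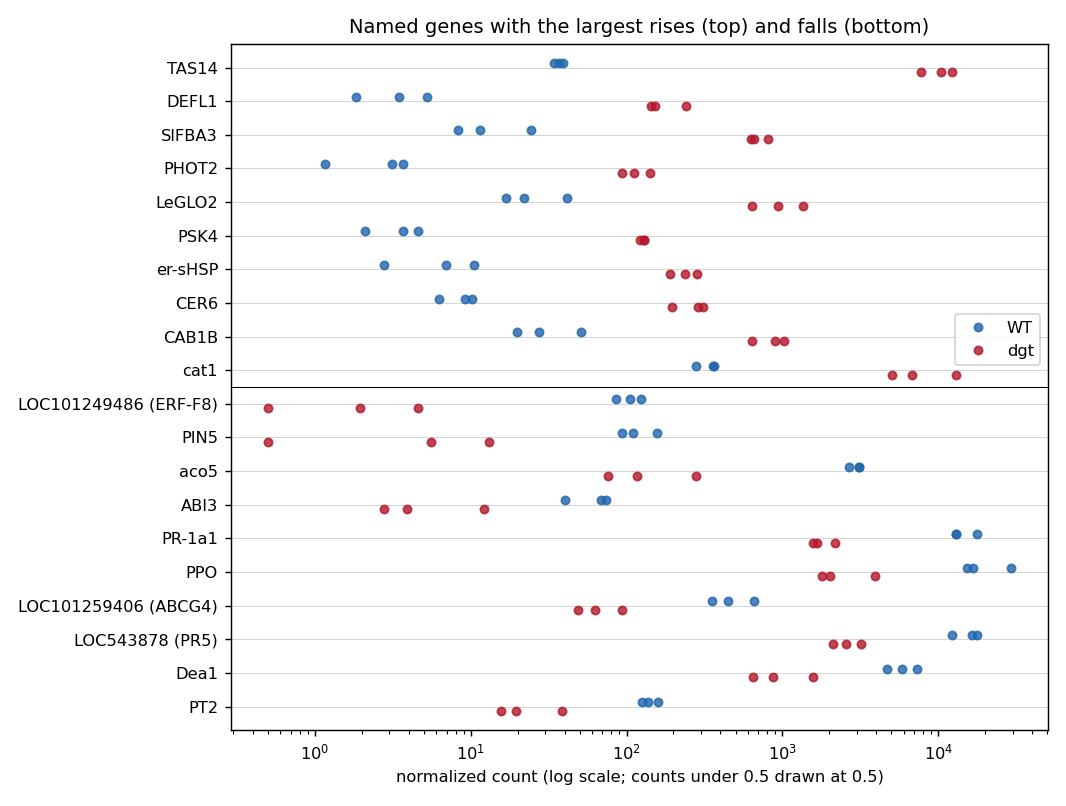
Normalized counts on a log axis for the 10 named genes with the largest rises (top) and the 10 with the largest falls (bottom), with 3 WT libraries in blue and 3 *dgt* libraries in red for each gene. No gene shown overlaps between genotypes, as the naming rule required; TAS14 has 37.0, 38.8 and 34.1 counts in WT and 10459.8, 12257 and 7735 in *dgt*.

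On the TPM scale, which corrects for transcript length and so allows levels of different genes to be compared, the largest gain was that of XSP10, a small protein known from xylem sap. Its level of 2891 ± 391 TPM in WT compared with 8581 ± 329 TPM for *dgt* (SD, n = 3 each), with 20109, 22239 and 21239 normalized counts in WT and 57537, 60032 and 57218 in *dgt* (log2 fold change 1.46 ± 0.15, edgeR adjusted p = 3.8e-05). LOC544187, listed as TFHS1, rose from 1145 ± 215 to 4095 ± 1256 TPM (SD, n = 3 each; edgeR adjusted p = 2.2e-04). LOC112940010 reached 8718 ± 1391 TPM in *dgt* from 4193 ± 1567 in WT (SD, n = 3 each, edgeR adjusted p = 0.011). Its log2 fold change of 0.97 was below 2-fold and did not pass without *dgt* replicate 2 (adjusted p = 0.0533). LOC104646731 rose from 1956 ± 565 to 3893 ± 141 TPM (SD, n = 3 each; edgeR adjusted p = 0.00325). LEMT1, a metallothionein, had 3752 ± 847 TPM in WT against 6716 ± 585 for *dgt* (SD, n = 3 each), with a log2 fold change of 0.70 ± 0.22 (edgeR adjusted p = 0.0339). This change was below 2-fold. It did not pass in the fit of all 18 libraries (adjusted p = 0.142), without WT replicate 2 (adjusted p = 0.12) or without WT replicate 3 (adjusted p = 0.0805). Nor did it pass without *dgt* replicate 1 (adjusted p = 0.0946), without *dgt* replicate 2 (adjusted p = 0.116) or without *dgt* replicate 3 (adjusted p = 0.0544).

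The largest losses of TPM were in 2 tonoplast aquaporins, a sucrose synthase and a peroxidase. The sucrose synthase gene sus3, whose enzyme splits sucrose for use by sink tissue, had 189125, 158501 and 132919 normalized counts in WT and 55967, 45695 and 61122 in *dgt*, which is 4024 ± 388 against 1489.9 ± 209 TPM (SD, n = 3 each; log2 fold change -1.56 ± 0.20, edgeR adjusted p = 1.9e-04). LOC101250523, listed as a peroxidase, fell from 5223 ± 334 to 2885 ± 164 TPM (SD, n = 3 each; edgeR adjusted p = 8.2e-04). LOC101249406, which has no name in the gene table, fell from 1792 ± 234 to 131 ± 46.9 TPM (SD, n = 3 each; log2 fold change -3.90 ± 0.28, edgeR adjusted p = 4.2e-06). The aquaporin genes TIP and SlTIP2-2 were highest in WT replicate 1 and are given with their family below.

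Some genes were read in only one genotype at this depth. In 30 genes no WT library held more than 3 counts while every *dgt* library held 50 or more, and 7 genes showed the reverse. The most abundant of the first kind was LOC101247226, with 0, 1.05 and 0 normalized counts in WT and 1485, 1632 and 1647 in *dgt* (edgeR adjusted p = 4.6e-09). It was followed by LOC101253320, with 0, 0 and 2.76 in WT and 1205, 1052 and 1634 in *dgt* (edgeR adjusted p = 1.2e-07), and by the pseudogene LOC101260054, with 0, 0 and 0 in WT and 496, 416 and 583 in *dgt* (edgeR adjusted p = 6.2e-07). Of the second kind, the long non-coding RNA LOC101266522 had 304, 288 and 321 normalized counts in WT and 0.980, 0 and 0 in *dgt* (edgeR adjusted p = 1.2e-07). LOC101257568 had 308, 305 and 272 in WT and 2.93, 2.77 and 1.01 in *dgt* (edgeR adjusted p = 1.2e-07), and LOC101253768 126, 241 and 232 and 1.95, 0 and 2.03 (edgeR adjusted p = 3.1e-06). No fold is given for these genes, because so few counts in the lower genotype do not set its size.

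Genes of photosynthesis rose nearly as a block. Of 31 genes found by name, 30 were tested and 27 were called higher in *dgt* and none lower, beside 8.54% and 4.47% of all tested genes. The median log2 fold change of the tested members was 1.98, against 0.0066 over all tested genes. With edgeR at an unadjusted p under 0.05, 0 members were lower by over 2-fold and 1 at any fold, ELIP, an early light-induced protein, at -0.52 ± 0.15. DESeq2 and limma-voom each called 26 higher and 0 lower. Cab-3C (0.69 ± 0.27, edgeR adjusted p = 0.0754) and POR2, a protochlorophyllide reductase (0.24 ± 0.17, edgeR adjusted p = 0.309), did not pass.

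The chlorophyll a/b-binding proteins of the light-harvesting antennae made up most of the group. CAB1B had 50.8, 19.9 and 27.6 normalized counts in WT and 894, 636 and 1018 in *dgt* (log2 fold change 4.71 ± 0.29, edgeR adjusted p = 1.5e-06). CAB11 had 8.09, 8.40 and 5.53 in WT and 90.8, 101 and 152 in *dgt* (log2 fold change 3.96 ± 0.32, edgeR adjusted p = 8.9e-06). CAB13 had 68.2, 29.4 and 43.3 in WT and 701, 513 and 855 in *dgt* (log2 fold change 3.89 ± 0.28, edgeR adjusted p = 3.8e-06). In each of these the lowest *dgt* library was several times the highest WT library. The genes of this family have close copies among which reads are divided, so the counts of single members are uncertain. Summed over 16 such genes, the expected counts were 1641, 1091 and 1310.1 in WT replicates 1, 2 and 3 and 6637, 6368 and 8674 in *dgt*, so the summed counts did not overlap either.

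Subunits of the photosystems and of carbon fixation rose as well. PSBO, of the oxygen-evolving complex, had 210.2, 199 and 180.5 normalized counts in WT and 427, 462 and 494 in *dgt* (log2 fold change 1.23 ± 0.13, edgeR adjusted p = 5.3e-05). LOC543978, the photosystem I subunit gene psaD, had 208, 135 and 153 in WT and 525, 552 and 501 in *dgt* (log2 fold change 1.67 ± 0.16, edgeR adjusted p = 3.0e-05). PETE, the plastocyanin gene, had 103, 88.2 and 72.8 in WT and 252, 343 and 207 in *dgt* (log2 fold change 1.61 ± 0.22, edgeR adjusted p = 2.5e-04). The folds of these electron-transport genes were smaller than those of CAB1B, CAB11 and CAB13, which were named for their large folds. Further antenna genes lay on both sides, with CAB-10A at 1.00 ± 0.17 and CAB7 at 2.85 ± 0.14 on the log2 scale. For PSBO, psaD and PETE no library of either genotype overlapped the other. The Rubisco small subunit gene rbcS1 had 241, 154 and 131 in WT and 431, 398 and 432 in *dgt* (log2 fold change 1.27 ± 0.20, edgeR adjusted p = 7.9e-04). SBPase, a Calvin cycle phosphatase, had 1.16, 1.05 and 0 in WT and 45.9, 40.6 and 42.5 in *dgt* (edgeR adjusted p = 1.7e-05).

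The photosynthesis list also served as the marker list for green tissue. Its summed level was 298 to 348 TPM in the 3 WT libraries of the differentiation zone and 1059 to 1317 TPM in the 3 *dgt* libraries. In the elongation zone it was 103 to 138 TPM in WT and 430.1 to 536 TPM in *dgt*, and in the meristem 193 to 362 and 342 to 375 TPM. Of the 27 members called higher in the differentiation zone, 25 were also called higher in the elongation zone and 4 were in meristem libraries. In those zones 9.68% and 10.1% of all tested genes were called higher. How far all genes called higher here overlapped with those zones was not counted. The difference between the *dgt* effect here and the mean effect in the other zones passed for 3 of 30 members, each with the larger effect in the differentiation zone. That mean joins unlike zones. The median log2 fold change of the list was 2.99 for elongation zone libraries and -0.11 for meristem libraries, beside 1.98 here. By its medians the list thus rose more in the elongation zone than here. The part of these markers in the other results was not tested.

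**Figure D3:**
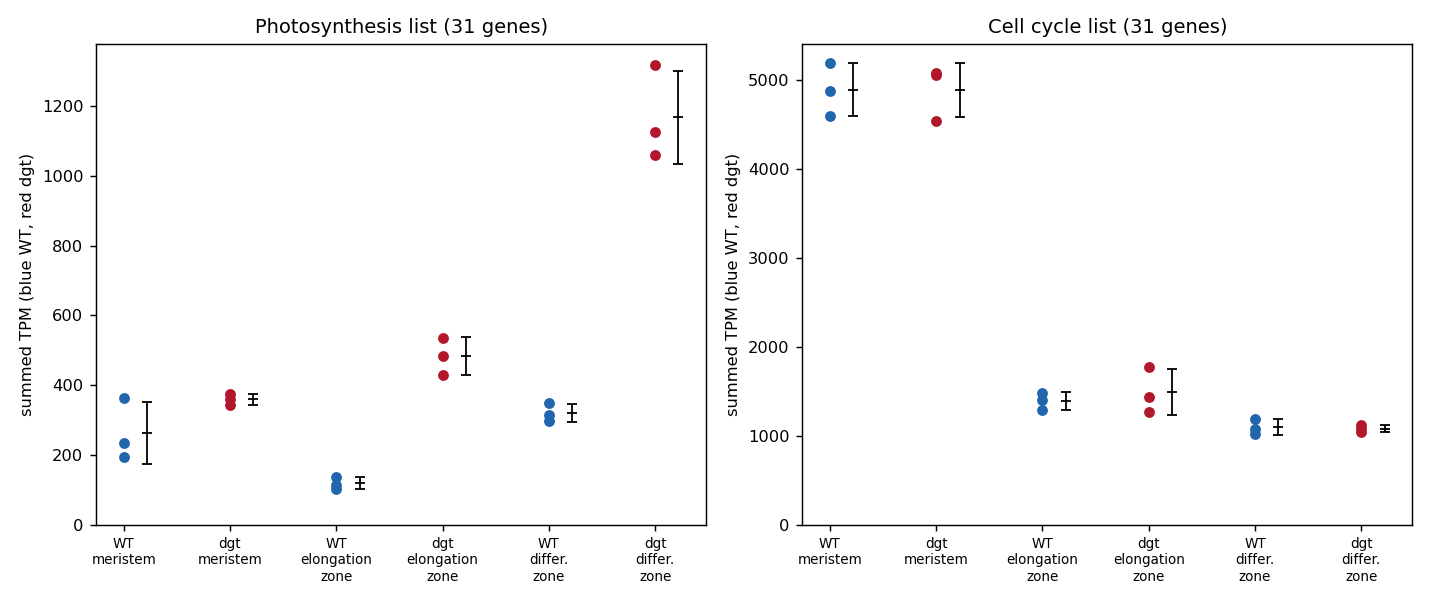
Summed TPM of the photosynthesis list (left) and the cell cycle list (right), 31 genes each, in every library of the 6 groups, with WT in blue and *dgt* in red; black bars give the mean ± SD of 3 libraries. The photosynthesis sum in the *dgt* differentiation zone, 1059 to 1317 TPM, lies above all other groups, while the cell cycle sums of the genotypes overlap in every zone.

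Of 29 genes of ABA and water deficit found by name, 25 were tested, and 9 were called higher and 1 lower, ABI3, given above, beside 8.54% and 4.47% of all tested genes. The median log2 fold change was 0.62. LeNCED1, the 9-cis-epoxycarotenoid dioxygenase that makes the first committed precursor of ABA, had 78.5, 88.2 and 99.5 normalized counts in WT and 410.1, 337 and 405 in *dgt* (log2 fold change 2.11 ± 0.16, edgeR adjusted p = 5.0e-06). PP2C-2, a protein phosphatase of the class that restrains ABA signalling, had 154, 105 and 108 in WT and 1383, 698 and 1104 in *dgt* (log2 fold change 3.12 ± 0.25, edgeR adjusted p = 8.2e-06). JA2, a NAC transcription factor, had 180.2, 144 and 169 in WT and 532, 445 and 582 in *dgt* (log2 fold change 1.66 ± 0.15, edgeR adjusted p = 1.8e-05). For none of these did the genotypes overlap.

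Protective proteins of the same group rose as well. ASR1, an ABA-, stress- and ripening-induced protein, had 148, 189 and 247 normalized counts in WT and 3507, 3346 and 2079.8 in *dgt* (log2 fold change 3.93 ± 0.24, edgeR adjusted p = 1.6e-06), and its relative Asr4 34.6, 28.3 and 24.9 and 165, 123 and 106 (log2 fold change 2.17 ± 0.24, edgeR adjusted p = 7.2e-05). Their relatives Asr2 and ASR3 fell by less than 2-fold, Asr2 at -0.62 ± 0.15 (edgeR adjusted p = 0.00857) and ASR3 at -0.73 ± 0.21 (edgeR adjusted p = 0.0247) on the log2 scale. GolS2, a galactinol synthase, had 17.3, 10.5 and 12.9 in WT and 56.6, 68.2 and 56.7 in *dgt* (log2 fold change 2.16 ± 0.27, edgeR adjusted p = 1.9e-04). ER5, a late embryogenesis abundant-like gene, had 1.16, 0 and 3.68 in WT and 48.8, 66.4 and 25.3 in *dgt* (log2 fold change 4.68 ± 0.64, edgeR adjusted p = 2.9e-04), and 6.12 without WT replicate 3. LE25, a further late embryogenesis abundant gene, had 1.16, 0 and 0 in WT and 20.5, 46.1 and 10.1 in *dgt* (edgeR adjusted p = 0.00124). The count of 9 stayed between 9 and 10 when single libraries were left out. Of these 9 genes, 8 were also called higher in the elongation zone and 5 were in meristem libraries. Over all tested genes the shares were 9.68% and 10.1%. The like overlap for all genes called higher here was not counted.

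Small heat shock proteins, chaperones that hold unfolding proteins, rose, while most of the larger chaperones named in the list did not pass. Of 24 tested genes of heat shock proteins and factors, 9 were called higher and 1 lower (8.54% and 4.47% of all tested genes), and the median log2 fold change was 0.29. LOC543848, listed as HSP17-6, had 90.1, 56.7 and 44.2 normalized counts in WT and 1046, 789 and 881 in *dgt* (log2 fold change 3.85 ± 0.23, edgeR adjusted p = 1.2e-06). The endoplasmic reticulum member er-sHSP had 6.93, 10.5 and 2.76 in WT and 283, 189 and 237 in *dgt* (log2 fold change 5.14 ± 0.33, edgeR adjusted p = 2.0e-06). HSP17.8 had 277, 298 and 291 in WT and 2839, 2393 and 2606 in *dgt* (log2 fold change 3.18 ± 0.13, edgeR adjusted p = 1.2e-07). Replicates of HSP17.8 were tight in both genotypes, and no library overlapped for any of these genes. HSP21, a plastid member, had 1.16, 1.05 and 0.920 in WT and 24.4, 26.8 and 12.2 in *dgt* (edgeR adjusted p = 3.5e-04), and LOC101256272, listed as HSP21.5A, had 0, 0 and 0.920 and 38.1, 32.3 and 34.4 (edgeR adjusted p = 2.6e-05). HSP70 rose by 1.69 ± 0.16 on the log2 scale (edgeR adjusted p = 2.2e-05), and HSP90 was the member called lower, with 819, 462 and 386 in WT and 199, 128 and 230.0 in *dgt* (log2 fold change -1.58 ± 0.28, edgeR adjusted p = 0.00176). Of the small heat shock proteins HSP17.4 (-0.78 ± 0.44, edgeR adjusted p = 0.208) and MTSHP (0.08 ± 0.30, edgeR adjusted p = 0.871) did not pass. The heat shock factors did not pass either, with HsfA1a at 0.30 ± 0.12 (edgeR adjusted p = 0.0729) and HSFA3 at 0.50 ± 0.23 (edgeR adjusted p = 0.125).

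In auxin signalling, several ARF genes and 2 Aux/IAA genes rose, and other Aux/IAA and GH3 genes fell. Of 55 tested genes 10 were called higher and 4 lower, beside 8.54% and 4.47% of all tested genes, and the median log2 fold change was 0.31. ARF5, the ortholog by name of the Arabidopsis MONOPTEROS activator of vascular and embryo patterning, had 216, 296 and 239 normalized counts in WT and 1319, 1252 and 1074 in *dgt* (log2 fold change 2.28 ± 0.15, edgeR adjusted p = 2.2e-06). ARF2 had 1230.1, 1329.7 and 1275 in WT and 3770.1, 3431 and 3363 in *dgt* (log2 fold change 1.46 ± 0.12, edgeR adjusted p = 7.7e-06), and ARF3 243, 312 and 322 and 718, 765 and 559 (log2 fold change 1.22 ± 0.16, edgeR adjusted p = 2.1e-04). Of the called members 7 were ARF genes, all of them higher in *dgt* in this zone. ARF6 at -0.49 ± 0.20 (edgeR adjusted p = 0.089) and ARF10 at -0.05 ± 0.12 (edgeR adjusted p = 0.79) did not pass, and LOC100191131, listed as ARF7, passed in the other direction below 2-fold at -0.95 ± 0.14 (edgeR adjusted p = 6.2e-04).

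Among the Aux/IAA repressors, IAA10 had 28.9, 48.3 and 22.1 normalized counts in WT and 161, 184 and 125 in *dgt* (log2 fold change 2.25 ± 0.28, edgeR adjusted p = 1.5e-04). IAA3 had 33.5, 35.7 and 32.2 in WT and 97.7, 125 and 111 in *dgt* (log2 fold change 1.72 ± 0.20, edgeR adjusted p = 1.0e-04). In the other direction, LOC101055542, listed as IAA2, had 166, 171 and 249 in WT and 52.7, 45.2 and 86.1 in *dgt* (log2 fold change -1.68 ± 0.26, edgeR adjusted p = 6.5e-04). Members of this repressor family thus moved both ways. The GH3 enzymes conjugate auxin to amino acids, and LOC101264094, listed as GH3-15, had 70.5, 52.5 and 51.6 in WT and 8.79, 12.0 and 12.2 in *dgt* (log2 fold change -2.39 ± 0.29, edgeR adjusted p = 1.3e-04). LOC101268544, listed as GH3-3, fell too, at -1.53 ± 0.44 on the log2 scale (edgeR adjusted p = 0.0235), while LOC101251833, listed as GH3-4, rose by 1.299 ± 0.25 (edgeR adjusted p = 0.00255). The count of 4 lower members dropped to 2 without *dgt* replicate 1.

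Of 40 tested genes of auxin synthesis and transport 4 were called higher and 2 lower, shares near the 8.54% and 4.47% of all tested genes, with a median log2 fold change of 0.12. The FZY genes encode YUCCA-type flavin monooxygenases of auxin synthesis, and FZY3 had 18.5, 22.04 and 11.1 normalized counts in WT and 110.3, 113 and 141 in *dgt* (log2 fold change 2.83 ± 0.26, edgeR adjusted p = 2.2e-05). FZY5 had 40.4, 29.4 and 12.9 in WT and 174, 79.3 and 154 in *dgt* (log2 fold change 2.32 ± 0.39, edgeR adjusted p = 0.00106). FZY6 moved the other way below 2-fold, at -0.77 ± 0.20 (edgeR adjusted p = 0.0127). LOC100736477, listed as the influx carrier gene LAX2, had 126, 281 and 314 in WT and 904, 1035 and 1102 in *dgt* (log2 fold change 2.07 ± 0.26, edgeR adjusted p = 1.7e-04). LOC101268778, listed as ABCB12, had 24.3, 22.04 and 16.6 in WT and 3.91, 5.53 and 3.04 in *dgt* (log2 fold change -2.28 ± 0.40, edgeR adjusted p = 0.00159). PIN5 was the PIN carrier gene called, and of the others PIN7 at 0.69 ± 0.14 (edgeR adjusted p = 0.00445) rose by less than 2-fold, while PIN3 at 0.36 ± 0.19 (edgeR adjusted p = 0.183) did not pass. Without WT replicate 3 the count of higher members was 7.

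Of 12 tested genes of ethylene synthesis 1 was called higher and 3 lower, beside 8.54% and 4.47% of all tested genes, and the median log2 fold change was -0.18. ACO3 had 33.5, 36.7 and 40.5 normalized counts in WT and 174, 199 and 119.5 in *dgt* (log2 fold change 2.15 ± 0.23, edgeR adjusted p = 6.0e-05), the direction opposite to aco5. LOC100125909, listed as ACO6, had 316, 538 and 502 in WT and 227, 239.8 and 186 in *dgt* (log2 fold change -1.06 ± 0.20, edgeR adjusted p = 0.0022), and was under 2-fold without WT replicate 2, WT replicate 3 and *dgt* replicate 3, at -0.93, -0.98 and -0.96. ACS2, an ACC synthase, had 25.4, 21.0 and 25.8 in WT and 9.76, 8.30 and 15.2 in *dgt* (log2 fold change -1.12 ± 0.34, edgeR adjusted p = 0.0286), a call that was lost with DESeq2 (adjusted p = 0.0586), without WT replicate 1 (adjusted p = 0.0555), without WT replicate 3 (adjusted p = 0.0726), without *dgt* replicate 1 (adjusted p = 0.106) or without *dgt* replicate 2 (adjusted p = 0.12). The lower count was 1 without WT replicate 3, and the higher count 2 without *dgt* replicate 1. Of 20 tested receptor and signalling genes edgeR called 0, also at an unadjusted p under 0.05 with a fold over 2, as did DESeq2 and limma-voom, and without WT replicate 3 or *dgt* replicate 1 it called 1 higher. At any fold 6 of them rose and 3 fell at the adjusted p, beside 16.1% and 13.4% of all tested genes. Among them were EIL4, a transcription factor of the pathway, at 0.93 ± 0.15 (edgeR adjusted p = 7.6e-04) and the receptor ETR4 at -0.74 ± 0.13 (edgeR adjusted p = 0.0018).

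The AP2/ERF transcription factors, some of which act downstream of ethylene and others in cold and drought responses, were found both among raised and among lowered genes. Of 51 tested members 10 were called higher and 6 lower, beside 8.54% and 4.47% of all tested genes, and the median log2 fold change was 0.06. LOC101252194, listed as ERF-H7, had 41.6, 47.2 and 35.0 normalized counts in WT and 426, 244 and 252 in *dgt* (log2 fold change 2.90 ± 0.25, edgeR adjusted p = 1.5e-05). LOC101266647, listed as ERF-H2, had 46.2, 35.7 and 29.5 in WT and 268, 306 and 223 in *dgt* (log2 fold change 2.85 ± 0.21, edgeR adjusted p = 4.8e-06). LOC101267882, listed as ERF-D7, had 0, 1.05 and 0.920 in WT and 28.3, 38.7 and 36.5 in *dgt* (edgeR adjusted p = 3.4e-05). Together with ERF-H6, 3 genes named ERF-H rose. ERF2 was the most abundant of those that fell, with 2213, 1528 and 1437 in WT and 392, 369 and 471 in *dgt* (log2 fold change -2.07 ± 0.18, edgeR adjusted p = 1.3e-05).

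Of 13 tested cytokinin genes 4 were called higher and 3 lower, beside 8.54% and 4.47% of all tested genes, with a median log2 fold change of 0.10. SlIPT3 and SlIPT4 encode isopentenyltransferases that start cytokinin synthesis, and had 182, 240.3 and 264 and 323, 311 and 279.9 normalized counts in WT. In *dgt* they had 81.0, 83.0 and 142 and 115, 143 and 151 (log2 fold changes -1.17 ± 0.23 and -1.16 ± 0.15, edgeR adjusted p = 0.00331 and 2.3e-04). The LOG enzymes release the active base, and TLOG1 had 215, 209 and 283 in WT and 753, 731 and 709 in *dgt* (log2 fold change 1.63 ± 0.14, edgeR adjusted p = 1.3e-05). LOG6 had 0, 2.10 and 0.920 in WT and 32.2, 53.5 and 33.4 in *dgt* (edgeR adjusted p = 7.2e-05). The cytokinin oxidase genes SlCKX2 and SlCKX4 rose by 1.13 ± 0.26 and 1.04 ± 0.33 on the log2 scale (edgeR adjusted p = 0.00799 and 0.0377), and the hydroxylase gene SlCYP735A1 was lower, at -1.13 ± 0.14 (edgeR adjusted p = 1.6e-04). Other members of the same families did not pass, with SlIPT5 at 0.10 ± 0.17 (edgeR adjusted p = 0.707), LOG7 at -0.49 ± 0.29 (edgeR adjusted p = 0.234), SlCKX3 at 0.06 ± 0.12 (edgeR adjusted p = 0.766) and SlCKX5 at 0.56 ± 0.43 (edgeR adjusted p = 0.356).

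Among 16 tested genes of gibberellins and brassinosteroids, 1 was called higher and 1 lower, beside 8.54% and 4.47% of all tested genes. CYP724B2, a cytochrome P450 of brassinosteroid synthesis, had 51.98, 69.3 and 86.6 normalized counts in WT and 145, 153 and 187 in *dgt* (log2 fold change 1.21 ± 0.21, edgeR adjusted p = 0.00139). TGAS118 had 56.6, 26.2 and 42.4 in WT and 5.86, 8.30 and 18.2 in *dgt* (log2 fold change -1.94 ± 0.43, edgeR adjusted p = 0.00618). Leaving out *dgt* replicate 2 made both counts 2, and leaving out WT replicate 2 or 3 made the higher count 2. Of the perception genes, the gibberellin receptor gene GID1 was at -0.04 ± 0.11 (edgeR adjusted p = 0.842) and the brassinosteroid receptor gene CURL3 at 0.19 ± 0.11 (edgeR adjusted p = 0.213), and neither passed.

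PR proteins and other defence proteins fell more often than they rose. Of 25 tested genes 8 were called lower and 5 higher, beside 4.47% and 8.54% of all tested genes, with a median log2 fold change of -0.29. PR-1a1, a member of the PR-1 family, had 17618, 12898 and 12938 normalized counts in WT and 1668, 1571 and 2159 in *dgt* (log2 fold change -3.01 ± 0.19, edgeR adjusted p = 1.8e-06). LOC543878, listed as the thaumatin-like gene PR5, had 17811, 12294 and 16333 in WT and 2107, 2571 and 3191 in *dgt* (log2 fold change -2.56 ± 0.20, edgeR adjusted p = 6.5e-06). LOC543987, listed as the glucanase gene GluB, had 9971, 9800.1 and 9032 in WT and 2323, 2406 and 2607 in *dgt* (log2 fold change -1.97 ± 0.13, edgeR adjusted p = 2.3e-06). These transcripts were abundant in WT and lower in every *dgt* library. The chitinase gene CHI9 had 9551, 5973 and 6727 in WT and 2089, 2609 and 2309.8 in *dgt* (log2 fold change -1.67 ± 0.18, edgeR adjusted p = 7.0e-05). The antimicrobial peptide gene SN2, a snakin, had 16131, 7700.1 and 9184 in WT and 2547, 2649.8 and 3335 in *dgt* (log2 fold change -1.95 ± 0.25, edgeR adjusted p = 2.1e-04), with WT replicate 1 the highest library.

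Relatives of these genes split in direction. PR1b1 had 1.16, 0 and 0 normalized counts in WT and 33.2, 62.7 and 33.4 in *dgt* (edgeR adjusted p = 6.0e-05), while PR1a2 had 80.8, 33.6 and 34.1 and 6.84, 6.46 and 8.10 (log2 fold change -2.76 ± 0.44, edgeR adjusted p = 8.6e-04). CHI3, another chitinase, had 5.78, 4.20 and 6.45 in WT and 54.7, 191 and 67.9 in *dgt* (log2 fold change 4.22 ± 0.58, edgeR adjusted p = 2.9e-04), and 3.45 without *dgt* replicate 2. CHI3 and PR1b1 were barely read in WT, unlike the abundant members that fell. Of the 8 lowered members, 7 were also called lower in the elongation zone and 2 were in meristem libraries. In those zones 4.32% and 2.72% of all tested genes were called lower. The like overlap for all genes called lower here was not counted. The lower count was 7 to 9 when single libraries were left out.

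In the jasmonate and wounding group, polyphenol oxidases and an enzyme of jasmonate synthesis fell. Of 29 tested genes 2 were called higher and 4 lower, beside 8.54% and 4.47% of all tested genes, with a median log2 fold change of -0.03. Beside PPO, PPO_1 had 8296, 6332 and 5465 normalized counts in WT and 2771, 2607 and 3043 in *dgt* (log2 fold change -1.25 ± 0.16, edgeR adjusted p = 2.3e-04). LOC101259064, also listed as PPO, had 169, 89.2 and 87.5 in WT and 28.3, 13.8 and 36.5 in *dgt* (log2 fold change -2.13 ± 0.36, edgeR adjusted p = 0.0012). The polyphenol oxidase genes are close copies whose reads may be divided among them. AOC, the allene oxide cyclase, had 1343, 1070.5 and 1221 in WT and 611, 547 and 582 in *dgt* (log2 fold change -1.06 ± 0.12, edgeR adjusted p = 9.3e-05). ARG2, an arginase, had 13.9, 13.6 and 20.3 in WT and 55.7, 48.9 and 54.7 in *dgt* (log2 fold change 1.71 ± 0.27, edgeR adjusted p = 7.0e-04), and LOC100134911, listed as the repressor gene JAZ2, 6.93, 3.15 and 5.53 and 11.7, 22.1 and 10.1 (log2 fold change 1.49 ± 0.48, edgeR adjusted p = 0.0379). The JAZ2 call was lost with DESeq2 (adjusted p = 0.0787), without the filter on low counts (adjusted p = 0.0522) and in the fit of all 18 libraries (adjusted p = 0.0815). It was also lost with a replicate block in the fit (edgeR adjusted p = 0.0592). Leaving out WT replicate 2 (adjusted p = 0.129), WT replicate 3 (adjusted p = 0.0761), *dgt* replicate 1 (adjusted p = 0.061) or *dgt* replicate 2 (adjusted p = 0.185) lost it too. The count of higher members was 4 without WT replicate 1 or *dgt* replicate 3 and 1 without *dgt* replicate 1 or *dgt* replicate 2. The central regulator gene MYC2 did not pass at 0.15 ± 0.12 (edgeR adjusted p = 0.356).

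Of 17 tested WRKY transcription factor genes edgeR called 3 higher and 0 lower, beside 8.54% and 4.47% of all tested genes. The lower count was also 0 at an unadjusted edgeR p under 0.05 with a fold over 2. DESeq2 called 1 lower and limma-voom 0. LOC101263542, listed as SlWRKY23, had 39.3, 37.8 and 47.0 normalized counts in WT and 149, 140.2 and 179 in *dgt* (log2 fold change 1.91 ± 0.19, edgeR adjusted p = 3.9e-05). LOC100301944, listed as WRKY40, had 163, 165 and 185 in WT and 386, 439.9 and 217 in *dgt* (log2 fold change 1.02 ± 0.23, edgeR adjusted p = 0.00645), and was under 2-fold, at 0.82 to 0.99, when replicate 1 or 2 of either genotype was left out. SlWRKY37 had 16.2, 19.9 and 47.0 in WT and 58.6, 61.8 and 70.9 in *dgt* (log2 fold change 1.17 ± 0.35, edgeR adjusted p = 0.027), or 1.80 without WT replicate 3, the highest WT library. Its call was lost without WT replicate 1 (adjusted p = 0.0546), without WT replicate 2 (adjusted p = 0.0939), without *dgt* replicate 1 (adjusted p = 0.06), without *dgt* replicate 2 (adjusted p = 0.0694) or without *dgt* replicate 3 (adjusted p = 0.0742), and the count of higher members was 1 when replicate 1 or 2 of either genotype was left out. The lower count was 1 when any of the WT libraries or *dgt* replicate 1 was left out.

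**Figure D4:**
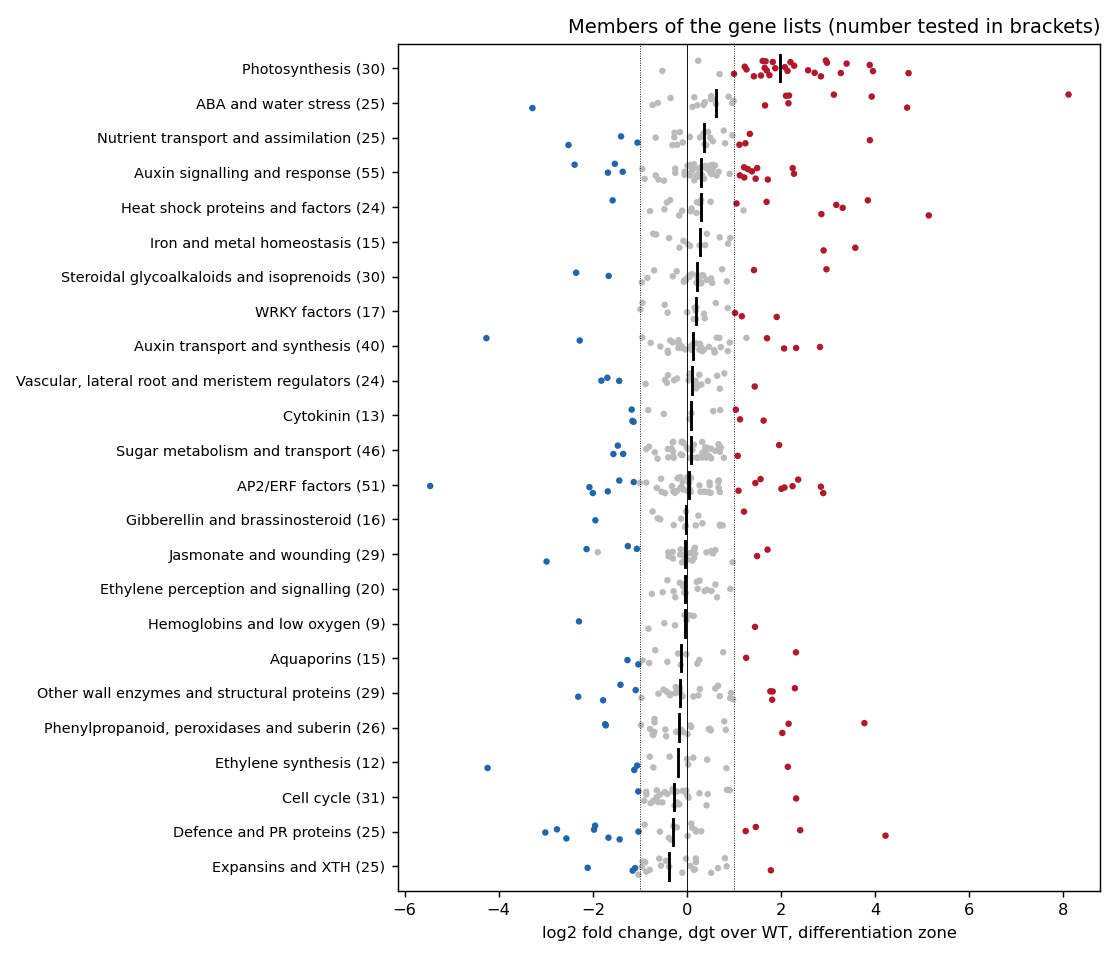
Log2 fold change (*dgt* over WT) of the tested members of each gene list, with red for members called higher, blue for members called lower and grey for the rest; black bars are the medians over all tested members and dotted lines mark a fold of 2. Genes read at 3 counts or fewer throughout one genotype are not drawn. The photosynthesis median of 1.98 lies apart from the others, and most medians lie near 0.

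Of 25 tested expansin and xyloglucan endotransglucosylase/hydrolase (XTH) genes 1 was called higher and 3 lower (8.54% and 4.47% of all tested genes), with a median log2 fold change of -0.38. EXPA4, an expansin, had 113, 107 and 99.5 normalized counts in WT and 25.4, 21.2 and 27.4 in *dgt* (log2 fold change -2.11 ± 0.21, edgeR adjusted p = 3.4e-05). EXPB2, a beta-expansin, had 3989, 3808 and 3936 in WT and 1739, 1730.2 and 2002 in *dgt* (log2 fold change -1.10 ± 0.12, edgeR adjusted p = 6.1e-05). The expansin gene exp18 had 46.2, 61.9 and 35.0 in WT and 187, 148 and 156 in *dgt* (log2 fold change 1.79 ± 0.22, edgeR adjusted p = 1.7e-04). XTH9 had 191, 93.4 and 122 in WT and 58.6, 31.4 and 93.2 in *dgt* (log2 fold change -1.15 ± 0.36, edgeR adjusted p = 0.0329), and its call was lost without WT replicate 1 (adjusted p = 0.0918), without *dgt* replicate 1 (adjusted p = 0.0981) or without *dgt* replicate 2 (adjusted p = 0.111). The lower count ranged from 2 to 6 when single libraries were left out, with 6 without WT replicate 2 or WT replicate 3 and 5 without *dgt* replicate 3.

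Of 29 tested genes of other wall enzymes and structural proteins 4 were called higher and 4 lower (8.54% and 4.47% of all tested genes), with a median log2 fold change of -0.14. PMEU1, a pectin methylesterase, had 22460.2, 11713 and 8915 normalized counts in WT and 3217, 2945 and 2529 in *dgt* (log2 fold change -2.31 ± 0.29, edgeR adjusted p = 1.9e-04), or -1.83 without WT replicate 1, the highest library. TPRP-F1, a proline-rich protein, had 31296, 24689 and 22269 in WT and 7237, 6251 and 9288 in *dgt* (log2 fold change -1.78 ± 0.19, edgeR adjusted p = 6.2e-05). SlPL, a pectate lyase, had 68.2, 54.6 and 40.5 in WT and 301, 259 and 236 in *dgt* (log2 fold change 2.30 ± 0.20, edgeR adjusted p = 1.6e-05). Enzymes that act on pectin thus moved in both directions. Cel2, an endoglucanase, had 35.8, 40.9 and 49.7 in WT and 169.9, 160.5 and 121 in *dgt* (log2 fold change 1.82 ± 0.21, edgeR adjusted p = 1.0e-04). LeGRP1, a glycine-rich protein, had 2608, 5472 and 4986 in WT and 14993, 19789.8 and 11125 in *dgt* (log2 fold change 1.81 ± 0.28, edgeR adjusted p = 6.8e-04).

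Among 26 tested genes of phenylpropanoids, peroxidases and suberin, 3 were called higher and 2 lower (8.54% and 4.47% of all tested genes), with a median log2 fold change of -0.17. TMP1, a peroxidase, had 11.6, 19.9 and 15.7 normalized counts in WT and 200.2, 297 and 155 in *dgt* (log2 fold change 3.77 ± 0.31, edgeR adjusted p = 8.6e-06), while the peroxidase gene TPX2 had 22657, 17111 and 14899 and 5625, 4840.2 and 5935 (log2 fold change -1.74 ± 0.18, edgeR adjusted p = 4.5e-05). TPX2 was far more abundant than TMP1 in WT, at 1132 ± 139 against 0.910 ± 0.304 TPM (SD, n = 3 each). LOC101249418, listed as CYP84A2, of the cytochrome P450 family that makes syringyl lignin precursors, had 105, 118 and 129.8 in WT and 465, 576 and 542 in *dgt* (log2 fold change 2.16 ± 0.15, edgeR adjusted p = 3.0e-06). SlGPAT6, an acyltransferase of cutin synthesis, had 3.47, 11.5 and 21.2 in WT and 33.2, 69.2 and 51.7 in *dgt* (log2 fold change 2.03 ± 0.46, edgeR adjusted p = 0.00715), and 2.73 without WT replicate 3. F3H, a flavanone hydroxylase, had 164, 98.7 and 157 in WT and 31.2, 45.2 and 50.6 in *dgt* (log2 fold change -1.72 ± 0.26, edgeR adjusted p = 5.2e-04).

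Of 15 tested genes of iron and other metals edgeR called 2 higher and 0 lower, beside 8.54% and 4.47% of all tested genes. The lower count was also 0 at an unadjusted edgeR p under 0.05 with a fold over 2, and with DESeq2 and limma-voom. CHLN, the nicotianamine synthase whose product chelates iron and copper, had 221, 289 and 338 normalized counts in WT and 3132, 3344 and 3687 in *dgt* (log2 fold change 3.58 ± 0.17, edgeR adjusted p = 3.7e-07). MT2, a metallothionein, had 851, 1240.5 and 1219 in WT and 6739, 10950.5 and 7143 in *dgt* (log2 fold change 2.91 ± 0.22, edgeR adjusted p = 6.1e-06). The lowest *dgt* library was several times the highest WT library for both. The gene fer, the regulator of iron uptake, moved the other way below 2-fold, at -0.72 ± 0.14 (edgeR adjusted p = 0.00261).

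Of 25 tested genes of nutrient transport and assimilation 4 were called higher and 3 lower (8.54% and 4.47% of all tested genes), and the median log2 fold change was 0.36. LOC101267799, listed as ST2.1, had 62.4, 71.4 and 75.5 normalized counts in WT and 1237, 1134 and 747 in *dgt* (log2 fold change 3.89 ± 0.21, edgeR adjusted p = 7.4e-07). The ammonium transporter genes changed in opposite directions, AMT1-2 from 3191, 3504 and 3449.6 in WT to 8832, 9220.3 and 7604 in *dgt* (log2 fold change 1.34 ± 0.13, edgeR adjusted p = 3.3e-05). LeAMT1;1 went from 2905, 2571 and 2791 to 1372, 1302 and 1318 (log2 fold change -1.05 ± 0.11, edgeR adjusted p = 5.8e-05). NRT2.2, a nitrate transporter, and LKT1, a potassium channel, rose by 1.24 ± 0.23 and 1.12 ± 0.23 on the log2 scale (edgeR adjusted p = 0.00185 and 0.0045). APS1 had 1013, 706 and 721 in WT and 297, 315 and 312 in *dgt* (log2 fold change -1.40 ± 0.15, edgeR adjusted p = 6.8e-05).

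Water channels and sugar enzymes included some of the most abundant transcripts that changed. Of 15 tested aquaporin genes 3 were called higher and 2 lower, beside 8.54% and 4.47% of all tested genes. Those called lower were the plasma membrane gene LOC100736527, listed as PIP2-9, at -1.03 ± 0.32 (edgeR adjusted p = 0.0336) and SlTIP2-2. The tonoplast gene SlTIP2-2 had 104147, 49085 and 55275 normalized counts in WT and 21851, 24849 and 40234 in *dgt* (log2 fold change -1.26 ± 0.31, edgeR adjusted p = 0.0105), and its call was lost without *dgt* replicate 1 (adjusted p = 0.0582) or without *dgt* replicate 2 (adjusted p = 0.0547). TIP had 182751, 110981 and 96269 in WT and 64712, 69387 and 89646 in *dgt*, a change below 2-fold at -0.80 ± 0.25 (edgeR adjusted p = 0.0337). The TIP change did not pass in the fit of all 18 libraries (adjusted p = 0.0668) or with a replicate block (edgeR adjusted p = 0.0632). Nor did it pass without *dgt* replicate 1 (adjusted p = 0.143) or without *dgt* replicate 2 (adjusted p = 0.118). WT replicate 1 was the highest library for both, and without it the log2 fold changes were -0.85 and -0.47 and the aquaporin count lower was 0, as it was without *dgt* replicate 1 or *dgt* replicate 2. Among plasma membrane genes, LOC100529106, listed as PIP2-4, had 7893, 5574 and 5332 in WT and 12479, 12720.4 and 19826 in *dgt* (log2 fold change 1.26 ± 0.22, edgeR adjusted p = 0.00137), and pip1 0, 0 and 0.920 and 94.7, 76.5 and 69.9 (edgeR adjusted p = 3.5e-06). XIP1-1-beta had 91.2, 68.2 and 91.2 in WT and 471, 291 and 491 in *dgt* (log2 fold change 2.32 ± 0.22, edgeR adjusted p = 2.5e-05).

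Of 46 tested genes of sugar metabolism and transport 2 were called higher and 3 lower, beside 8.54% and 4.47% of all tested genes, and the median log2 fold change was 0.09. Beside sus3, LOC543961, listed as ssf and SUS1, a sucrose synthase gene, had 8627, 8358 and 7351 normalized counts in WT and 3314, 2749 and 3457 in *dgt* (log2 fold change -1.35 ± 0.14, edgeR adjusted p = 4.6e-05), while SUS4 rose by less than 2-fold, at 0.67 ± 0.14 (edgeR adjusted p = 0.00501). Invertases also split sucrose, and AI, an acid invertase, had 245, 152 and 157 in WT and 784, 719 and 646 in *dgt* (log2 fold change 1.96 ± 0.18, edgeR adjusted p = 2.2e-05). LIN7, a cell wall invertase, had 20.8, 16.8 and 12.0 in WT and 5.86, 4.61 and 7.09 in *dgt* (log2 fold change -1.47 ± 0.40, edgeR adjusted p = 0.0188), and its call was lost without WT replicate 1 (adjusted p = 0.0555), without WT replicate 2 (adjusted p = 0.0527), without *dgt* replicate 1 (adjusted p = 0.0642) or without *dgt* replicate 2 (adjusted p = 0.0823). Of the sucrose-splitting enzymes, the 2 called sucrose synthases were thus lower and AI higher in every *dgt* library. The other member called higher was LOC543729, listed as CIF1, an invertase inhibitor gene, at 1.08 ± 0.22 (edgeR adjusted p = 0.00387). Without WT replicate 1 or WT replicate 2 the count higher was 1.

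Of 9 tested genes of hemoglobins and low oxygen 1 was called higher and 1 lower, beside 8.54% and 4.47% of all tested genes. ADH2, an alcohol dehydrogenase, had 42212, 37535 and 33209 normalized counts in WT and 8272, 8162 and 6616 in *dgt* (log2 fold change -2.29 ± 0.17, edgeR adjusted p = 4.5e-06). Glb2, a nonsymbiotic hemoglobin, had 159, 211 and 295 in WT and 629, 595 and 601 in *dgt* (log2 fold change 1.45 ± 0.19, edgeR adjusted p = 2.3e-04). The other members named here did not pass, with ADH3 at -0.01 ± 0.19 (edgeR adjusted p = 0.985) and Glb1 at -0.48 ± 0.20 (edgeR adjusted p = 0.0886).

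Of 30 tested genes of glycoalkaloid, sterol and terpene synthesis 4 were called higher and 2 lower (8.54% and 4.47% of all tested genes), with a median log2 fold change of 0.21. TPS14, a terpene synthase, had 0, 0 and 0 normalized counts in WT and 65.4, 229.7 and 119.5 in *dgt* (edgeR adjusted p = 1.5e-04), and lTTS1, a triterpene synthase, 0, 0 and 0.920 and 18.6, 14.8 and 18.2 (edgeR adjusted p = 2.5e-04). TPS31, a further terpene synthase, had 3.47, 6.30 and 10.1 in WT and 56.6, 69.2 and 36.5 in *dgt* (log2 fold change 2.97 ± 0.40, edgeR adjusted p = 2.7e-04). GAME1, which adds the first sugar to the steroidal alkaloid tomatidine, had 569, 508 and 458 in WT and 142, 185 and 157 in *dgt* (log2 fold change -1.66 ± 0.15, edgeR adjusted p = 1.7e-05). MTS2, a monoterpene synthase, had 61.2, 72.4 and 65.4 in WT and 2.93, 19.4 and 16.2 in *dgt* (log2 fold change -2.35 ± 0.41, edgeR adjusted p = 0.0015). In TPS14 and TPS31 the highest value was in *dgt* replicate 2.

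Of 31 tested cell cycle genes, the markers of dividing cells, 1 was called higher and 1 lower, beside 8.54% and 4.47% of all tested genes. The median log2 fold change was -0.27. The member called higher was the D-type cyclin gene cycd3c3 with 10.4, 15.7 and 13.8 normalized counts in WT and 75.2, 65.5 and 61.8 in *dgt* (log2 fold change 2.32 ± 0.26, edgeR adjusted p = 8.2e-05). The replication clamp gene pcna had 685, 643 and 590.3 in WT and 325, 301 and 311 in *dgt* (log2 fold change -1.03 ± 0.12, edgeR adjusted p = 8.8e-05), and -0.98 without WT replicate 1, under 2-fold. The lower count was 0 in that setting and 2 without WT replicate 2. The higher count was 2 without WT replicate 2 or *dgt* replicate 3. At any fold 4 members passed as higher and 11 as lower, beside 16.1% and 13.4% of all tested genes. The summed level of the list was 1023 to 1193 TPM in WT and 1041 to 1117 TPM in *dgt*, against 4536 to 5193 TPM in the meristem libraries.

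Of 24 tested vascular, lateral root and meristem regulators 1 was called higher and 3 lower (8.54% and 4.47% of all tested genes), and the median log2 fold change was 0.12. Ls, the GRAS protein Lateral suppressor, needed for side shoots in tomato, had 20.8, 35.7 and 23.0 normalized counts in WT and 7.81, 6.46 and 8.10 in *dgt* (log2 fold change -1.82 ± 0.36, edgeR adjusted p = 0.00337). LOC101261713, listed as LAS, had 1135, 1227 and 1384 in WT and 396, 401 and 586 in *dgt* (log2 fold change -1.44 ± 0.16, edgeR adjusted p = 8.5e-05). The gene ail had 107, 81.9 and 87.5 in WT and 27.3, 27.7 and 30.4 in *dgt* (log2 fold change -1.69 ± 0.22, edgeR adjusted p = 1.9e-04). The homeobox gene h52 had 102, 116 and 139 in WT and 329, 338 and 307 in *dgt* (log2 fold change 1.44 ± 0.15, edgeR adjusted p = 5.5e-05). The summed level of the list was 1710.4 to 1842 TPM in WT and 2070.0 to 2272 TPM in *dgt*. No root hair gene was found by name, so hair markers were not read.

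The *dgt* effect in the differentiation zone was set against the mean *dgt* effect in the elongation zone and the meristem, in a fit over all 18 libraries. Of 21969 tested genes 1899 differed (8.64%), 634 with the higher (2.89%) and 1265 with the lower effect (5.76%) in the differentiation zone. Against the elongation zone alone 1315 genes differed, and against the meristem alone 2937. LOC101267799, listed as ST2.1, was raised here, with a lowest, median and highest level of 1.97, 2.65 and 2.84 TPM in WT and 27.9, 43.3 and 48.9 TPM in *dgt*. In the other zones it lay between 0.26 and 1.49 TPM in every library of both genotypes, where its log2 fold changes were -0.19 (elongation zone) and -1.54 (meristem) (edgeR adjusted p of the zone difference = 2.0e-07). ERF-H2 was raised in the differentiation zone from 3.07, 3.67 and 4.06 TPM to 23.1, 29.3 and 32.4 TPM, against log2 fold changes of -0.04 and -0.55 in the elongation zone and the meristem (edgeR adjusted p of the zone difference = 1.8e-06). WT elongation zone libraries already held 23.2 to 29.6 TPM of ERF-H2.

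Other genes rose less here than in the younger zones. LEAS1, listed in RefSeq as AS1, had 34.0, 49.9 and 51.8 TPM in WT and 227, 229 and 238 TPM in *dgt* in the differentiation zone. Its log2 fold change of 2.25 ± 0.14 was smaller than those of 7.57 and 7.09 in the elongation zone and the meristem (edgeR adjusted p of the zone difference = 9.9e-07), where WT libraries held 0.43 to 1.89 TPM. JA2 had log2 fold changes of 1.66 here and 3.33 and 6.05 there (edgeR adjusted p of the zone difference = 1.1e-06). LOC101250466, listed as NAC2, a NAC transcription factor by name, had 398, 529 and 539 normalized counts in WT and 693, 809.8 and 667 in *dgt*, a log2 fold change of 0.56 against 2.05 and 4.67 (edgeR adjusted p of the zone difference = 3.6e-06). Its change in this zone was below 2-fold and did not pass in the fit of all 18 libraries (adjusted p = 0.0531) or without *dgt* replicate 2 (adjusted p = 0.0704). LOC101265900, listed as ACC, did not pass here at -0.35 (edgeR adjusted p = 0.227) and had log2 fold changes of 1.04 and 6.07 in the other zones (edgeR adjusted p of the zone difference = 3.7e-06). WT meristem libraries held only 0.0, 0.03 and 0.07 TPM of ACC, so the size of its meristem fold is uncertain. In each of LEAS1, JA2 and NAC2 every WT library of the differentiation zone lay above every WT library of the other zones.

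**Figure D5:**
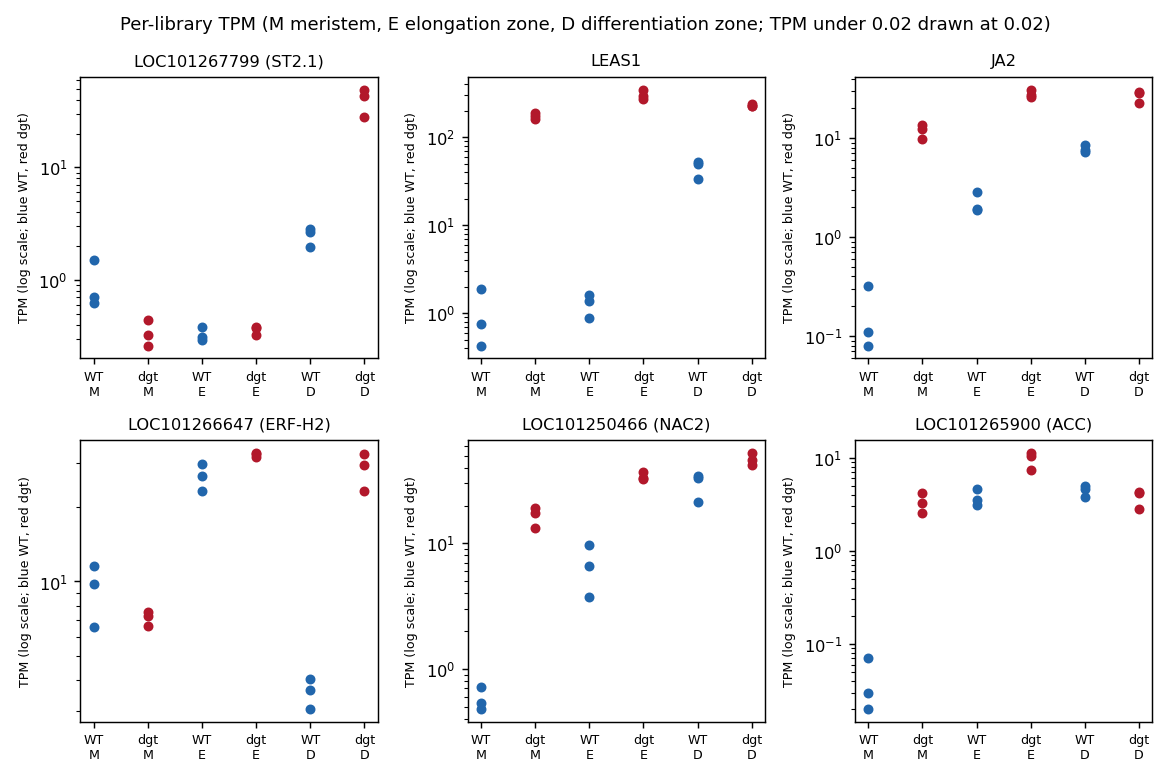
TPM on a log axis of the 6 named genes with the smallest p of the zone difference, in the 3 libraries of each of 6 groups, with WT in blue and *dgt* in red. ST2.1 is high in the *dgt* differentiation zone, at 27.9 to 48.9 TPM, and low in all other groups, while JA2 and NAC2 are lowest in the WT meristem. LEAS1 is low in the WT meristem and the WT elongation zone alike, and values near 0 are drawn at the floor named in the title.

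Among genes of the groups above, HSP17-6 had the larger rise in the differentiation zone, with log2 fold changes of 3.85 here, 1.16 in the elongation zone, and -0.01 for the meristem (edgeR adjusted p of the zone difference = 4.8e-05). EXPA4 fell here and was at 0.51 and 0.60 in the elongation zone and the meristem (edgeR adjusted p of the zone difference = 4.4e-04). The pectate lyase gene SlPL had 2.30 here, 0.78 and 0.04 there (edgeR adjusted p of the zone difference = 9.9e-05). Glb2 and TLOG1 rose less here, at 1.45 against 5.58 and 1.95, and at 1.63 against 3.41 and 4.03 (edgeR adjusted p of the zone differences = 5.2e-05 and 5.5e-05). TAS14 had a smaller fold here, and its log2 fold changes were 8.11, 9.82 and 9.19 in the differentiation zone, elongation zone and meristem (edgeR adjusted p of the zone difference = 0.0155). In that order its mean levels were 3.76, 0.947 and 0.717 TPM in WT and 1132, 1092 and 486 TPM in *dgt*. Of the group members, 4 of 24 heat shock genes passed the zone difference, all with the higher effect here, and 6 of the 7 passing nutrient genes likewise. Of the 7 passing phenylpropanoid genes all had the lower effect here, and of all tested genes 2.89% had the higher and 5.76% the lower effect. WT meristem replicate 2 stood apart in the chlorophyll-binding genes, with a summed level of 118 TPM against 32.7 and 57.0 TPM in the other WT meristem libraries. Without it 3363 genes differed, and the 6 genes with the smallest p all still passed.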

How the data were processed

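RNA of WT and *dgt* root zones was sequenced by Illumina; per the submitters' processing notes, base calls came from CASAVA 1.8.2 and expression from RSEM. For each library the authors deposited gene tables with expected counts, which are estimated and need not be whole, and with TPM, scaled by library size and transcript length. Both were read as deposited. Tables of isoforms were not used, nor were the authors' EBSeq comparisons, which hold posterior probabilities and fold changes. Reads shared between near-identical genes were divided by RSEM, so values of close paralogs are uncertain.

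Expected counts were rounded, filtered with filterByExpr (minimum count 10, minimum total 15), scaled by TMM and fitted with edgeR 4.0.16 (prior count 0.125) in R 4.3.3, for the 6 libraries alone. Benjamini-Hochberg adjusted p-values cover all tested genes. The zone difference was fitted over all 18 libraries. DESeq2 1.42.0, limma-voom 3.58.1, other scalings, filters, leaving out each library and a replicate block were alternatives. The fit was tested on simulated data. The paper calls the replicates biological, and the p-values measure the spread between these pooled samples. Summed counts per library were 18504654 to 20622998, and low counts limit the folds of rare genes.

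Genes were named by a fixed rule. The 10 largest rises and falls among genes with a name, and the 5 largest changes in mean TPM each way, came from a filtered set. That set held non-overlapping genes at an adjusted p under 0.05. They averaged at least 50 normalized counts in the genotype with more, and had more than 3 counts somewhere in each genotype. Without this filter, up to 4 called members per list were taken. So were 3 genes per direction read in only one genotype, and the 6 named genes with the smallest p of the zone difference. Other list members are given where a list is described. Of 29922 genes in the files, 24925 were matched to RefSeq names by transcript, 2008 by symbol and 1 by synonym, and 58 were ambiguous and 2930 unmatched. The RefSeq assembly differs from the build of the files, so no coordinates are given. The 25 gene lists were formed by symbol and synonym, 1 of them, for root hairs, found no gene, and members that a symbol had misassigned were removed. Members and lists were chosen with earlier results of these data known. The result of 1 list member is not reported here.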

Additional observations from a re-analysis of the deposited data

Results flagged for a closer look

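The *dgt* effect in the differentiation zone differed from its mean in the elongation zone and the meristem for 1899 genes, by the edgeR test of the difference itself over 18 libraries. The 6 named genes with the smallest p of that test are given as differences of log2 fold changes. ST2.1 was at 4.76 and ERF-H2 at 3.15, both with the larger effect in the differentiation zone. LEAS1 was at -5.06, JA2 at -3.03, NAC2 at -2.79 and ACC at -3.89, all with the smaller or opposite effect there. Without WT meristem replicate 2 these differences were 4.76, 3.02, -5.65, -2.89, -2.87 and -4.47, in the same order, and all passed. The size for ACC is uncertain, because its WT meristem libraries held at most 0.07 TPM.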

How the results depend on the processing

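Across 14 other settings, 103 of the 113 named genes kept their direction and their side of the adjusted p threshold, 10 that passed no longer did in at least 1 setting, and 0 reversed. In at least 1 setting 4 called genes, SlTIP2-2, ACO6, WRKY40 and pcna, passed the adjusted p but were under 2-fold. SlTIP2-2 is also among the 10 that no longer passed in another setting. With at least 10 CPM required in 3 libraries, fewer genes were tested, and the calls were 627 higher, 386 lower and 3525 at any fold, with 6 higher members in auxin signalling and 5 in heat shock. With glmTreat, which tests against a 2-fold change, 901 were higher and 309 lower. When single libraries of the differentiation zone were left out, the calls ranged from 1613 to 1895 higher, from 835 to 989 lower and from 4097 to 6134 at any fold, and the zone difference from 1391 to 1617. The zone difference was 1315 against the elongation zone alone and 2937 against the meristem alone. Without WT meristem replicate 2 it was 3363, and the cause was not tested. Correlations of deviations between replicates of the same number were 0.045, 0.11 and 0.13, and between unlike numbers -0.21 to 0.13. With 3 replicates these cannot settle whether the numbers pair the samples. With the replicate block 1761 were higher, 914 lower and 6302 passed at any fold, while the zone difference was 1758. Of the named genes, TIP (edgeR adjusted p = 0.0632) and JAZ2 (edgeR adjusted p = 0.0592) did not pass with the block, and WRKY40 was under 2-fold, at 0.97. Low counts limit the folds of rare genes.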
